A study of Mus musculus with 22 samples.

Results

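The replication-dependent histone genes were described in RNA-seq libraries of mouse memory T helper cells recovered from tissue or from the circulation. A gene was a member when its deposited name was H1f1 to H1f5, or H2ac, H2bc, H3c or H4c followed by a number. This gave 56 of the 55291 gene names, 5 for histone H1, 15 for H2A, 14 for H2B, 12 for H3 and 10 for H4. In the RefSeq annotation of GRCm38.p6, 46 members lie on chromosome 13 and 10 on chromosome 3. The set was chosen by its FPKM values in circulating against tissue libraries, so values along location are given as a description without a test.

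Histone proteins package DNA. Pairs of H2A, H2B, H3 and H4 form the nucleosome core, and H1 binds the DNA that links nucleosomes. The replication-dependent genes are made mainly in S phase, when new DNA needs new histones. They have no introns, and their mRNAs usually end in a conserved stem-loop, bound by the protein Slbp, in place of a poly(A) tail. Some of these genes can also give polyadenylated mRNA in resting or differentiated cells. Many copies of a class encode the same or nearly the same protein.

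The study traced Th2 cells, helper T cells that make type 2 cytokines, after transfer into recipient mice. The 8 RNA libraries form 4 groups of 2, named by where the cells were recovered (tissue or circulating) and by what they had been before. Former tissue-resident memory cells are labelled ex-TRM, and former circulating memory cells ex-Tcirc. A further 14 ATAC-seq samples were not analysed here.

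All 8 RNA samples carry the same labels, which are lung as tissue, CD4+ T cells, female mice, 6 to 10 weeks of age and Balb/c as host strain. The design text names donors of 2 T cell receptor transgenic strains, OT-II creERT2 and DO11.10. Recipients of the strain C57BL/6 (Ly5.2) and of the strain BALB/c-nu/nu were sensitized with ovalbumin (OVA), and nu/nu mice lack a thymus and most T cells of their own. Cells were taken on day 49 in one experiment, after tamoxifen had switched on Cre recombination. In the other they were taken on day 71, after a second transfer of lung cells and an OVA rechallenge. The labels do not say which experiment an RNA library comes from, so groups may also differ by experiment. The design text describes circulating cells from blood, whereas their libraries are labelled lung. Between 3000 and 50000 cells went into a sample. Whether replicates came from separate animals is not stated, and p-values therefore cover the spread between these libraries alone, possibly a technical one.

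Levels are in FPKM, a fragment count divided by gene length in kilobases and by the size of the library. Circulating ex-TRM replicate 1 listed 917 names above 0, against 7042 to 37894 in the others, and was treated as missing. From the step that 1 fragment adds to short genes, the 4 tissue libraries held an estimated 2810000 to 11900000 fragments. The estimate was 3010000 for circulating ex-TRM replicate 2, and 989000 and 463000 for circulating ex-Tcirc replicates 1 and 2. In this last library 1 fragment of a gene of 500 bases is worth 4.32 FPKM, so a value of 0 there shows only that no fragment was assigned. Of 6 T cell markers, Cd3e, Cd3g, Cd4 and Trac were above 0 in all 7 libraries. Both circulating ex-Tcirc libraries listed Cd3d at 0, and replicate 2 also Lck. Of 6 Th2 markers, Il4, Il5 and Il13 were listed at 0 in all 3 circulating libraries, and Gata3 was above 0 in all 7. In tissue Il4 was at 0 to 11.9 FPKM, Il5 at 9.22 to 14.3 and Il13 at 4.64 to 7.37. Il1rl1 was at 64.0 to 112 FPKM in tissue and Ccr8 at 43.7 to 83.6. Both were at 0 in the circulating ex-Tcirc libraries, and at 34.5 and 4.59 FPKM in circulating ex-TRM replicate 2.

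Promoter sequences are shown to introduce the classes, since the genes of a class can share regulatory letters although each copy has its own promoter. RefSeq promoter windows of GRCm38.p6, 250 bases before to 50 after the start, were found for 50 members, 1 of which has more than 1 window (51 windows). The letters searched on both strands were the octamer ATTTGCAT, the TATA box TATAAA, the CCAAT box CCAAT and the H1 box AAACACA, and a match describes the letters only. The H1 box was in 4 of 5 H1 windows (80%) and in 7.18% of all 32851 windows of this length. The octamer was in 7 of 13 H2B windows (53.8%) and in 6 of 14 H2A windows (42.9%), against 1.74% of all windows, and in none of the H1, H3 or H4 windows. Divergent H2A and H2B neighbours can share such letters, because their windows overlap. CCAAT was in every H1, H2A, H2B and H3 window and in 33.3% of H4 windows, against 37.4% of all. TATAAA was in 58.8% of member windows and in 13.6% of all.

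The 150 bases before the start of each H1 gene are printed 5′ to 3′, with every match of the searched letters in capitals. They lie on chromosome 13 at chr13:23763518-23763667 (plus strand) for H1f1, chr13:23738657-23738806 (plus) for H1f2, chr13:23554882-23555031 (plus) for H1f3, chr13:23622559-23622708 (minus) for H1f4 and chr13:21780626-21780775 (minus) for H1f5.
H1f1: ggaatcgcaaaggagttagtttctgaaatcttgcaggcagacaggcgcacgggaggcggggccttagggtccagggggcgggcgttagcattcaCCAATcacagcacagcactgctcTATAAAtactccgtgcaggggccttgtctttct
H1f2: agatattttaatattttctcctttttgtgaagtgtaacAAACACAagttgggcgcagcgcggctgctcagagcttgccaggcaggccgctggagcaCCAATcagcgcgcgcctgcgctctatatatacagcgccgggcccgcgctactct
H1f3: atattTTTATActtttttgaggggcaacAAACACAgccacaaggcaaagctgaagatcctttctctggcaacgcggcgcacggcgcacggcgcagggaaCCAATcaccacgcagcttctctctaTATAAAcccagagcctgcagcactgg
H1f4: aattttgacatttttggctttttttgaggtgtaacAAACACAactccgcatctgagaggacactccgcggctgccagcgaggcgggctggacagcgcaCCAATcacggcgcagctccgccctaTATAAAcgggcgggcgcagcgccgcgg
H1f5: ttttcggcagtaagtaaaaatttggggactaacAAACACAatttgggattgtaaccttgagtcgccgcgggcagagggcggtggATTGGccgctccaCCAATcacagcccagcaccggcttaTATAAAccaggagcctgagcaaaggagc
In H1f2 to H1f5 the H1 box begins 112 to 122 bases and a CCAAT box 51 to 54 bases before the start. H1f1 does not hold the letters of the H1 box, and H1f2 does not hold TATAAA.

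From the core histones, 4 promoters are shown because their genes lead their class in 1 or more libraries or carry the octamer. They are H2bc3 at chr13:23746584-23746733, H2bc12 at chr13:22035671-22035820, H3c8 at chr13:23535268-23535417 and H4c4 at chr13:23581418-23581567, all on the plus strand.
H2bc3: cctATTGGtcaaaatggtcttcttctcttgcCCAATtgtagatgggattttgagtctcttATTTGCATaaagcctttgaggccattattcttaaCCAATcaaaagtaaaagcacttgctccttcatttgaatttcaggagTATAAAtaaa
H2bc12: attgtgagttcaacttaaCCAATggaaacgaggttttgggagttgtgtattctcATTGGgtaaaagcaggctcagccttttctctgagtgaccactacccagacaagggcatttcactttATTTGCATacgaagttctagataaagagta
H3c8: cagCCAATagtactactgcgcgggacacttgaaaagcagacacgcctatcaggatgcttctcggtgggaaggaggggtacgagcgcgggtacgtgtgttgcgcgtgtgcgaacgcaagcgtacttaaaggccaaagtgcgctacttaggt
H4c4: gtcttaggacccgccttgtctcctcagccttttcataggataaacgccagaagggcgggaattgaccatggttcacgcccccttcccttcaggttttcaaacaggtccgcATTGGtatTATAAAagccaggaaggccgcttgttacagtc
The octamer begins 90 bases before the start of H2bc3 and 30 bases before that of H2bc12. H3c8 holds only a CCAAT box in this stretch. In H4c4 the TATA box begins 32 bases and a reversed CCAAT box 40 bases before the start.

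Every histone class had a higher summed level in each of the 3 circulating libraries than in any of the 4 tissue libraries. Summed over all 56 members, FPKM in tissue was 519 and 486 for ex-Tcirc replicates 1 and 2 and 384 and 574 for ex-TRM. In circulation the sums were 8209 and 1871 for ex-Tcirc and 3338 for ex-TRM replicate 2. The mean of the circulating libraries was 9.12 times that of the tissue libraries. RefSeq lists H2ac14 as a pseudogene, and the other 55 members made up 0.199% to 0.317% of the FPKM of protein-coding names in tissue and 4.97%, 1.78% and 1.63% in the circulating libraries. The 53 members of at most 1000 bases correspond to about 778 to 3255 fragments per tissue library. In circulation they correspond to about 4303, 483 and 5312 fragments, so circulating ex-Tcirc replicate 2 rests on the fewest. In bulk samples, more cells of a kind and more RNA per cell cannot be told apart.

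**Figure D1:**
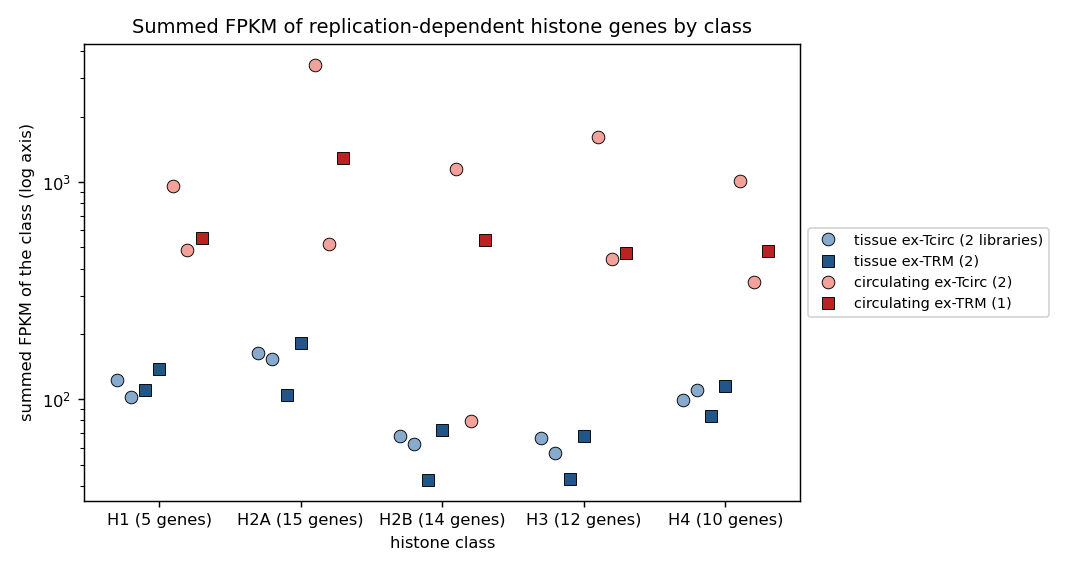
Summed FPKM of each histone class (log axis) in 7 libraries, 1 point per library, coloured by group. All circulating points lie above the tissue points of their class, and the lowest, H2B in circulating ex-Tcirc replicate 2, is 1.09 times the highest tissue value.

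The linker histone class H1 summed to 123, 103, 110 and 138 FPKM in tissue against 955, 486 and 555 in circulation. Here and below, 4 tissue values stand in the order ex-Tcirc replicates 1 and 2 and ex-TRM replicates 1 and 2, and 3 circulating values in the order ex-Tcirc replicates 1 and 2 and ex-TRM replicate 2. The ratio of the circulating to the tissue mean was 5.61. H2A, a core histone that pairs with H2B, summed to 163, 154, 104 and 181 FPKM in tissue against 3467, 518 and 1287 in circulation, a ratio of 11.7. H2B summed to 67.5, 62.4, 42.5 and 72.5 FPKM in tissue against 1152, 79.2 and 539 in circulation, a ratio of 9.64. H2B was the class in which circulating ex-Tcirc replicate 2 stood closest to tissue.

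H3, whose tail carries many of the known chromatin marks, summed to 66.2, 56.4, 43.1 and 67.8 FPKM in tissue against 1618, 442 and 473 in circulation. Its ratio of 14.5 was the largest of the 5 classes. Circulating ex-Tcirc replicate 1 carried much of these ratios, and without it they were 7.85 for H3, 6.00 for H2A and 5.05 for H2B. The 4 genes of the H3.1 protein and the 8 of the H3.2 protein had ratios of 14.6 and 14.4. H4, the partner of H3, summed to 99, 110, 83.5 and 115 FPKM in tissue against 1017, 346 and 483 in circulation, a ratio of 6.03. The order of the classes by ratio differed between libraries. In circulating ex-TRM replicate 2 alone the ratios were 4.68 for H1, 8.56 for H2A, 8.80 for H2B, 8.11 for H3 and 4.74 for H4. In circulating ex-Tcirc replicate 2 alone they were 4.10 for H1, 3.44 for H2A, 1.29 for H2B, 7.58 for H3 and 3.39 for H4. H1 and H4 were thus lowest in the ex-TRM library, whereas in this ex-Tcirc library H2B was lowest and H1 second to H3.

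The make-up of the summed level by class differed as well. H2A held 27.2% to 31.6% of it in tissue and 42.2% and 38.6% in circulating ex-Tcirc replicate 1 and circulating ex-TRM replicate 2. H1 held 21.2% to 28.8% in tissue and 11.6% and 16.6% in those libraries. In circulating ex-Tcirc replicate 2 the shares were 27.7% for H2A and 26% for H1, both within the tissue range, and 4.23% for H2B, below it.

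Of the 56 members, 53 reached 1 FPKM in at least 2 of the 7 libraries. In 33 of these 53 the 3 circulating libraries all lay above the 4 tissue libraries, which held for 2.33% of all 28325 genes that met the same minimum. By class these were 3 of 5 for H1, 12 of 14 for H2A, 4 of 13 for H2B, 5 of 11 for H3 and 9 of 10 for H4. No member had all tissue libraries above all circulating ones, against 12.1% of all genes. The rule for members used this contrast, so the counts are descriptive. Without circulating ex-Tcirc replicate 2 the count was 50 of 53, beside 8.11% of all genes. Among the 41 members above 0 in all 7 libraries the count was 33, beside 12.6% of all genes with values above 0 in all 7, and 0 had tissue higher, beside 5.19%. The median log2 difference of circulating minus tissue, on log2(FPKM + 1), was 2.38 over the 53 members and -0.75 over all genes, zeros included. Among genes above 0 in all 7 libraries it was 2.66 over the 41 members and 0.14 over all 5140 genes.

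Taken 1 library at a time, 51 of 53 members in circulating ex-Tcirc replicate 1 lay above all tissue libraries, beside 16.8% of all genes. In circulating ex-TRM replicate 2 this held for 50 of 53 members, beside 26.5% of all genes, and in circulating ex-Tcirc replicate 2 for 34, beside 11.3%. In that last library 17 of the 53 lay below all tissue libraries, against 1 in ex-Tcirc replicate 1 and 0 in ex-TRM replicate 2. There 11 of the 53 were listed at 0. Another 6 members there had values worth less than 1 fragment. Circulating ex-Tcirc replicate 1 gave the highest of the 7 values for 49 members, replicate 2 for 4 and circulating ex-TRM replicate 2 for 0 of the 55 members above 0 in any of the 7 libraries. Shares of all genes were not counted for these highest values, nor for values below all tissue libraries.

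**Figure D2:**
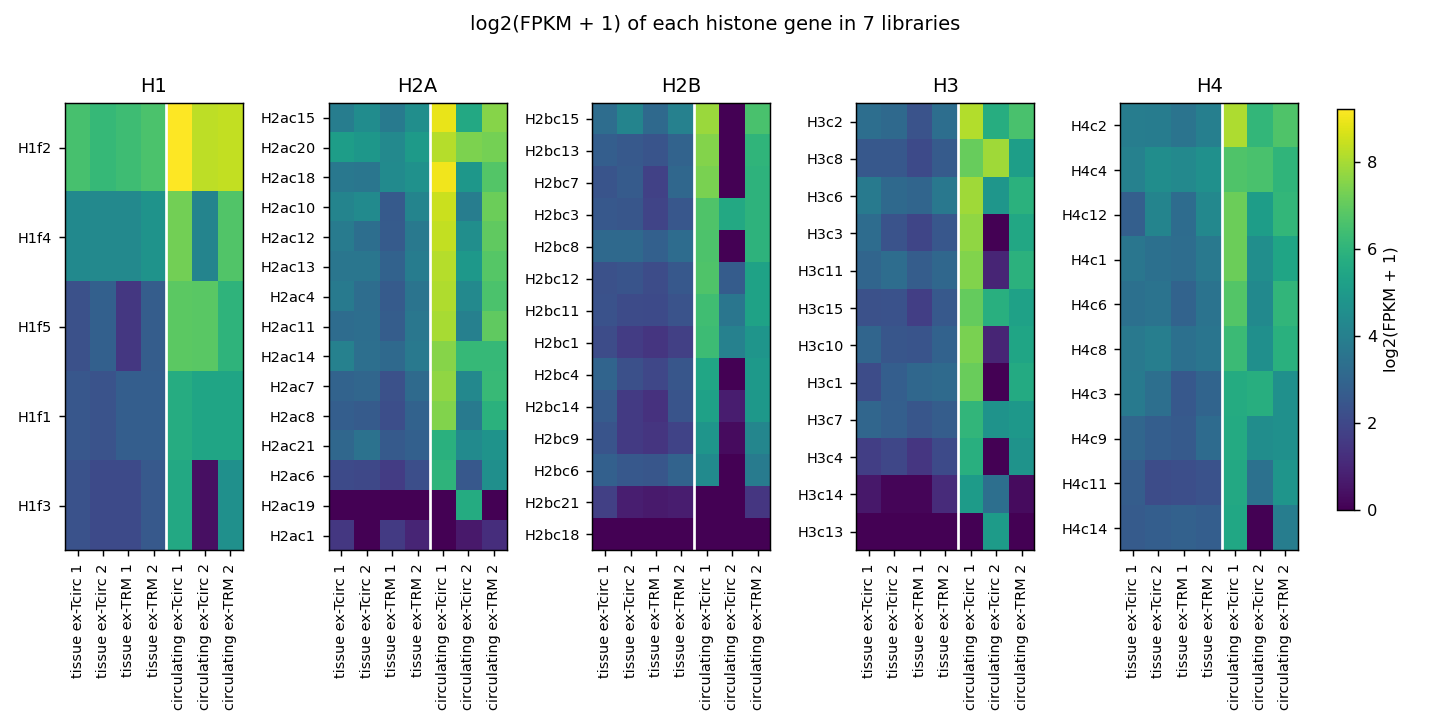
Level of each of the 56 members, log2(FPKM + 1), in 7 libraries, with the members of each class ordered by mean level and a white line between tissue and circulation. Most rows brighten in circulating ex-Tcirc replicate 1 and circulating ex-TRM replicate 2, whereas circulating ex-Tcirc replicate 2 mixes high values with zeros, mainly in H2B and H3.

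Among the linker histones, H1f2 was the most abundant member of its class in every library. It stood at 90.7, 70.2, 80.5 and 95.7 FPKM in tissue against 591, 311 and 324 in circulation, without overlap. It held 68.2% to 73.6% of the H1 level in tissue and 58.5% to 64.1% in circulation. H1f4, second to it in 6 of the 7 libraries, stood at 19.9, 19.3, 19.1 and 25.7 FPKM in tissue against 151, 16.6 and 103 in circulation. The value of H1f4 in circulating ex-Tcirc replicate 2 was below all tissue values, while the other circulating libraries were above them.

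H1f5 was at 3.86, 6.14, 1.82 and 5.54 FPKM in tissue against 116, 116 and 61.9 in circulation. Its ratio of 22.6 was the largest of the H1 genes, and it was the linker histone in which both circulating ex-Tcirc libraries were most alike. H1f1 was at 4.70, 4.14, 5.71 and 5.68 FPKM in tissue against 50.6, 42.1 and 41.6 in circulation, the narrowest circulating range of the class. H1f3 was at 3.96, 3.19, 3.21 and 4.97 FPKM in tissue against 45.9, 0.29 and 23.4 in circulation. H1f3 therefore overlapped between locations only through circulating ex-Tcirc replicate 2, where its value is worth less than 1 fragment.

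H2A had many members of similar level. H2ac15 stood at 13.8, 21.1, 12.6 and 22.5 FPKM in tissue against 473, 46.2 and 184 in circulation. H2ac20, a chromosome 3 gene, stood at 34.3, 28.1, 19.4 and 31.8 FPKM in tissue against 293, 166 and 154 in circulation. It was the highest H2A gene in 3 of 4 tissue libraries and in circulating ex-Tcirc replicate 2, where it held 32% of the class. H2ac18, also on chromosome 3, stood at 12, 11.2, 20.1 and 24.5 FPKM in tissue against 515, 28.3 and 107 in circulation. The libraries of these 3 genes did not overlap between locations.

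H2ac10 stood at 16.8, 20.4, 5.14 and 17 FPKM in tissue against 350, 13.9 and 140 in circulation, and overlapped through circulating ex-Tcirc replicate 2. H2ac1 had the lowest ratio of all members, 0.533. It was at 1.80, 0, 1.94 and 0.944 FPKM in tissue against 0, 0.553 and 1.32 in circulation, so its groups overlapped at low levels, worth about 11 fragments at most. The other 9 H2A genes above 0 in tissue had ratios of 4.77 to 15.9. H2ac19 was listed at 0 in all libraries except circulating ex-Tcirc replicate 2, where it was at 50.4 FPKM. H2ac19 and H2ac18 encode the same protein, and the split of fragments between them is uncertain.

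H2B was the class with the most zeros. H2bc15 stood at 8.77, 16.7, 7.77 and 15.5 FPKM in tissue against 224, 0 and 94.8 in circulation. H2bc13 stood at 5.73, 4.96, 4.22 and 6.62 FPKM in tissue against 178, 0 and 64.9 in circulation. H2bc7 stood at 4.21, 5.30, 2.43 and 7.37 FPKM in tissue against 163, 0 and 61.1 in circulation. These 3 genes, the highest H2B members by mean over the 7 libraries, were thus well above tissue in both deeper circulating libraries and listed at 0 in the shallowest. Their rank rests on the circulating libraries, since in all 4 tissue libraries H2bc8 was second to H2bc15.

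H2bc3, whose promoter is printed above, stood at 4.80, 4.56, 2.74 and 4.69 FPKM in tissue against 101, 46 and 61.3 in circulation, without overlap. It alone held 58.1% of the H2B level of circulating ex-Tcirc replicate 2. H2bc12, the other H2B gene with a printed octamer promoter, stood at 3.83, 4.29, 3.37 and 4.75 FPKM in tissue against 101, 5.43 and 38.1 in circulation. H2bc6 had the third lowest ratio, 2.02, with 6.11, 4.78, 4.50 and 6.57 FPKM in tissue and 20, 0 and 13.3 in circulation. H2bc21, a chromosome 3 gene known to give polyadenylated mRNA as well, was at 2.33, 0.713, 0.58 and 0.679 FPKM in tissue against 0, 0 and 1.77 in circulation. H2bc18 was listed at 0 in all 7 libraries.

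In H3, circulating ex-Tcirc replicate 2 was dominated by 1 gene. H3c8 stood at 4.86, 4.74, 3.24 and 5.32 FPKM in tissue against 132, 238 and 34.7 in circulation, and held 53.8% of the H3 level of that library. Its ratio of 29.7 was exceeded only by that of H3c14. H3c2 stood at 8.99, 7.78, 4.08 and 8.93 FPKM in tissue against 284, 52.4 and 93.8 in circulation, and led its class in both deeper circulating libraries. Neither gene overlapped between locations.

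H3c6 stood at 12.6, 7.77, 7 and 11.9 FPKM in tissue against 238, 27.6 and 58 in circulation. H3c3 stood at 8.48, 4.1, 2.84 and 4.72 FPKM in tissue against 207, 0 and 44.4 in circulation. H3c14 had the largest ratio of all members, 30.0, but from low tissue values of 0.495, 0.0799, 0.0804 and 1.20 FPKM and from 1 origin alone. Circulating ex-Tcirc cells gave 32.5 and 9.21 FPKM, and the ex-TRM library 0.193, within the tissue range. H3c13 was above 0 only in circulating ex-Tcirc replicate 2, at 32.4 FPKM. H3c13, H3c14 and H3c15, all on chromosome 3, belong to the genes of the H3.2 protein, and how fragments matching more than 1 of them were split is not known.

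H4 genes, which encode the same protein, had smaller ratios than H2A, H2B and H3 genes taken as a class. H4c2 stood at 14, 13.6, 10.8 and 14.7 FPKM in tissue against 265, 67.7 and 102 in circulation, the largest ratio of the class at 10.9. H4c4 stood at 15.7, 21.6, 19.2 and 23.4 FPKM in tissue against 100, 93.9 and 63.3 in circulation. H4c4 was the highest H4 gene in all 4 tissue libraries and H4c2 in both deeper circulating ones. H4c12 stood at 5.82, 16.8, 8.65 and 18.9 FPKM in tissue against 141, 33.9 and 68 in circulation. H4c1 stood at 11.1, 9.58, 8.84 and 12.2 FPKM in tissue against 139, 22.5 and 41.3 in circulation. Only H4c14, on chromosome 3, overlapped, being listed at 0 in circulating ex-Tcirc replicate 2.

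**Figure D3:**
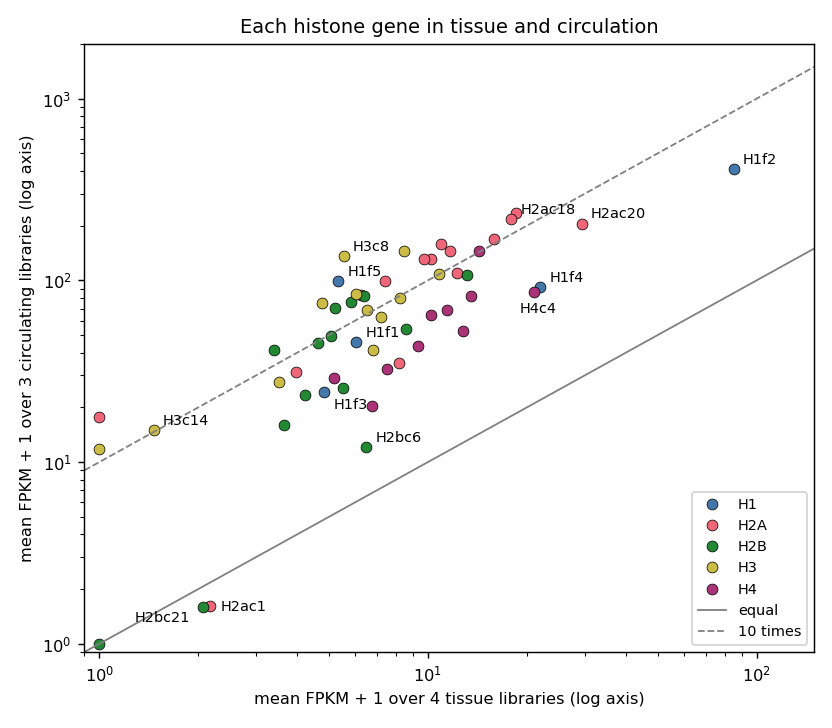
Mean FPKM + 1 of each member over 4 tissue and 3 circulating libraries (both axes log), coloured by class, with lines for equal values and for a ratio of 10. H2ac1 and H2bc21 lie below the line of equal values, H2bc18 lies at 0 FPKM on both axes, and the median ratio of members above 0 in tissue was 10.2.

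The rank order of the 56 members was similar among tissue libraries, with a Spearman rho of 0.826 to 0.953 for the 6 pairs of libraries. It was 0.92 between circulating ex-Tcirc replicate 1 and circulating ex-TRM replicate 2, although these differ in origin. Between each of these and the tissue libraries rho was 0.633 to 0.849. Circulating ex-Tcirc replicate 2 reached only 0.349 to 0.449 with any other library. These values describe members that share libraries, and nearly identical copies are not independent points.

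By the ratio over all 3 circulating libraries, position in the genome divided the members less than the class did. The ratio of circulating to tissue means was 9.30 for the 10 chromosome 3 members. On chromosome 13 it was 11.5 for the 16 members of the block nearer the start of the chromosome and 8.06 for the 30 members of the other block. The order differed between libraries. In the same order of groups, the ratios were 5.68, 3.03 and 3.75 in circulating ex-Tcirc replicate 2 alone. In circulating ex-TRM replicate 2 alone they were 5.35, 9.13 and 6.13. The groups also differ in their mix of classes, and no H1 gene lies on chromosome 3. For 7 pairs of an H2A and an H2B gene the starts face away from each other and lie 164 to 281 bases apart. The H2A gene was the higher in 5 or 6 of the 7 pairs in each of 6 libraries, with a median ratio of 1.34 to 1.81 in FPKM. In circulating ex-Tcirc replicate 2, where 4 of the H2B genes were listed at 0, it was the higher in 2 of the other 3 pairs. H2ac12 and H2bc12, for instance, stood at 327 and 101 FPKM in circulating ex-Tcirc replicate 1. H2bc1, the partner of H2ac1, was the higher of its pair in 6 of the 7 libraries, at 1.70 to 78 FPKM over all 7. Its ratio of circulating to tissue means was 16.8, against 0.533 for H2ac1.

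The comparison of origins within tissue was not used to choose the members and has 2 libraries on each side. No member differed by the test, and class sums stayed close between origins. Class by class, the tissue ex-TRM mean was 0.886 to 1.10 times the tissue ex-Tcirc mean, and 0.954 times for all members. With limma on log2(FPKM + 1) over the 4 tissue libraries, 0 of 51 members tested passed an adjusted p of 0.05, and 0.0% of all 24906 genes did. At an unadjusted p under 0.05 there was 1 member, beside 5.81% of all genes (1446). The median log2 difference of ex-TRM minus ex-Tcirc was -0.12 over these members and -0.000595 over all genes tested. The sign for the members was not stable, since their median was 0.16 without tissue ex-TRM replicate 1, -0.45 without ex-TRM replicate 2 and 0.03 with median-of-ratios factors.

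H2ac18 had the smallest p of the members. The ex-Tcirc libraries stood at 12 and 11.2 FPKM and the ex-TRM libraries at 20.1 and 24.5, which differ by 0.88 ± 0.19 (SE) on the log2 scale, with an adjusted p of 0.335 by limma. For H4c3 the ex-Tcirc libraries stood at 12.6 and 9.19 FPKM and the ex-TRM libraries at 4.74 and 6.81, a difference of -0.82 ± 0.31 (SE; limma adjusted p = 0.871). The most abundant member, H1f2, differed by 0.14 ± 0.19 (SE; limma adjusted p = 0.941). Libraries of the origins did not overlap for 3 members higher in ex-TRM (H1f1, H2ac18 and H3c1), beside 23.6% of all genes. They did not overlap for 4 members higher in ex-Tcirc (H2ac21, H3c7, H4c3 and H4c8), beside 10.3% of all genes. Tissue ex-TRM replicate 1 gave the lowest of the 4 tissue values for 42 members, and the share of all genes was not counted. Without tissue ex-Tcirc replicate 2, limma called 3 of 51 members (H2ac18, H3c1 and H4c3), beside 35.7% of all genes (8519 of 23889). In that fit ex-Tcirc is a single library, and the spread comes from the 2 ex-TRM libraries alone.

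**Figure D4:**
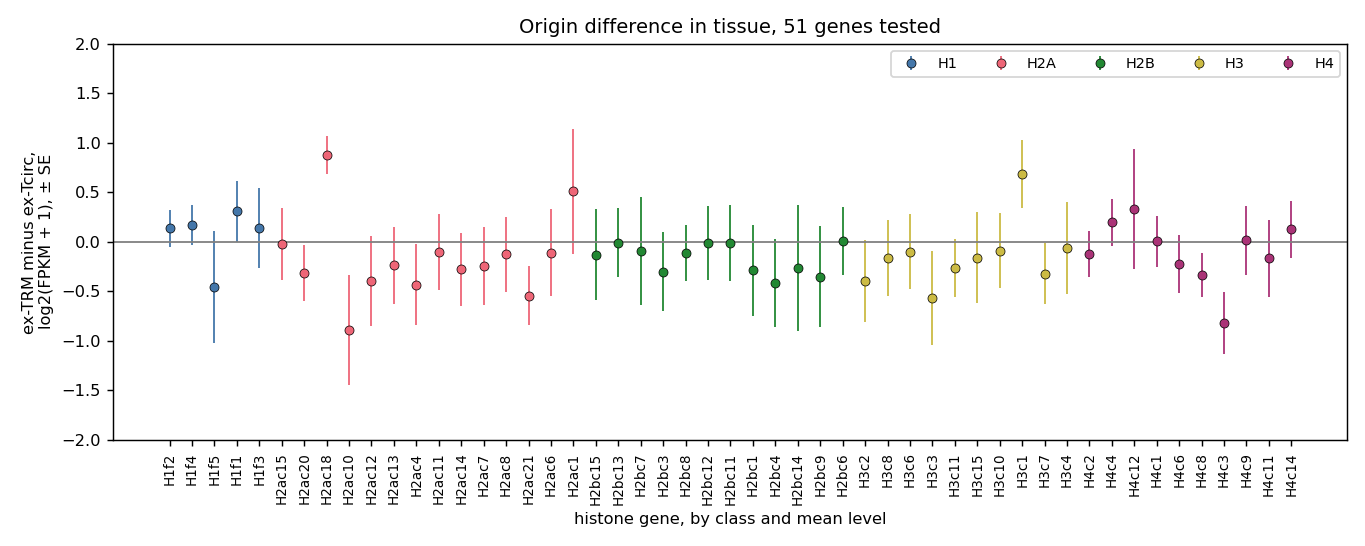
Difference of tissue ex-TRM minus tissue ex-Tcirc on log2(FPKM + 1) for the 51 members tested, with bars of 1 SE from limma over 4 libraries. Values lie on both sides of 0, H2ac18 is highest at 0.88 and H2ac10 lowest at -0.89, and none passed the test.

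In circulation the origins were compared with 1 ex-TRM library against 2 ex-Tcirc libraries, over a fit of all 7 libraries in which the lone library is assumed to vary like the other groups. No member passed, in a comparison where 15.5% of all genes did. With limma, 0 of 53 members and 4400 of 28325 genes had an adjusted p under 0.05, 4370 of them higher in ex-TRM. At an unadjusted p under 0.05 there were 3 members, beside 30.5% of all genes. H3c14 had a log2 difference of ex-TRM minus ex-Tcirc of -3.95 ± 0.91 (SE; limma adjusted p = 0.0546), and H3c8 of -2.32 ± 0.55 (SE; limma adjusted p = 0.0598). H2bc21 had a difference of 1.47 ± 0.47 (SE; limma adjusted p = 0.117), with both ex-Tcirc libraries listed at 0.

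The direction of the members depended on which circulating ex-Tcirc library was kept. The summed level of the single ex-TRM library, 3338 FPKM, lay between their 8209 and 1871 FPKM. With either of them left out, 1 library stands against 1, and the spread comes from the tissue libraries alone. Calls are therefore not given for these fits. Without ex-Tcirc replicate 1, the median log2 difference of ex-TRM minus ex-Tcirc was 1.85 over the members, beside 1.51 over all genes. In that fit 44 of 53 members were higher in ex-TRM. Without ex-Tcirc replicate 2, the median was -1.23 over the members, beside 0.90 over all genes, and 2 of 53 members were higher in ex-TRM. H1f1, H1f5, H2ac14, H2ac20, H3c8, H3c14, H3c15, H4c3 and H4c4 were lower in ex-TRM in both fits, which share the same single ex-TRM library. With the 3 circulating libraries fitted alone, no member was called. The origin difference in circulation minus that in tissue passed for 0 of 53 members, beside 7.41% of all genes, with 3 members at an unadjusted p under 0.05 by limma, beside 26.0% of all genes.

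Genes linked to histone supply were described by the same counts. A gene listed at 0 in a circulating library cannot count as above tissue. Many genes of these lists were at 0 in the circulating ex-Tcirc libraries. Of 11 genes that met the minimum in a list of replication-independent histones, most of which are expressed outside S phase and have poly(A) tails, 1 had all circulating libraries above tissue. This was H2ax, the variant marked at DNA breaks, which is known to give a stem-loop mRNA as well as a polyadenylated one. It stood at 5.04, 9.85, 7.94 and 12.8 FPKM in tissue against 66, 23.5 and 35.6 in circulation. The summed level of the list was 342 to 444 FPKM in tissue against 643, 87.9 and 589 in circulation, a ratio of 1.13 against 9.12 for the members. H3f3b, which encodes the replacement histone H3.3, stood at 218, 199, 250 and 249 FPKM in tissue against 319, 0 and 326 in circulation.

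Of 20 genes for histone gene transcription and 3′ end processing, 0 had all circulating libraries above tissue and 2 (Npat and Sympk) had all below. Npat, the S phase coactivator of histone genes, had 3.21 to 3.81 FPKM in tissue against 0, 0 and 2.71 in circulation. Slbp, the stem-loop binding protein, had 21.8 to 33.6 FPKM in tissue, while circulation gave 0 for both ex-Tcirc libraries and 41.7 for ex-TRM replicate 2. The list ratio was 0.89. Among 13 histone chaperones, which carry new histones to DNA, 1 was above (Nap1l1) and 2 below (Hira and Nap1l4), with a list ratio of 0.705.

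S phase genes, which copy DNA or supply its building blocks, had a ratio close to that of the replication-independent histones. Of 30 that met the minimum, 0 had all circulating libraries above tissue, beside 2.33% of all genes, and 1 (Tyms) had all below. Their summed level was 144 to 219 FPKM in tissue against 315, 33.9 and 293 in circulation, a ratio of 1.17. The sums of circulating ex-Tcirc replicate 1 and circulating ex-TRM replicate 2 thus lay above the tissue range, at 1.72 and 1.60 times the tissue mean. Of the 31 S phase genes listed, 15 were above 0 in circulating ex-Tcirc replicate 1 and 7 in replicate 2. Of the 56 members, 51 and 44 were, so zeros limit the S phase count more. Pcna, the replication clamp, was at 9.76, 29, 38.8 and 43.7 FPKM in tissue against 54.9, 0 and 39.8 in circulation. Rrm2, a subunit of the enzyme that makes deoxynucleotides, was at 0, 4.57, 3.13 and 3.38 FPKM in tissue against 35, 0 and 21.2 in circulation.

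Genes of G2 and mitosis had a list ratio of 4.92, with sums of 20.5 to 38.3 FPKM in tissue against 245, 41.6 and 148 in circulation. Of 16 that met the minimum, 2 had all circulating libraries above tissue, Top2a and Kif11, and 1 (Plk1) had all below. By mean log2 difference 13 of the 16 were higher in circulation, beside 51 of 53 members and 5569 of all 28325 genes. In circulating ex-TRM replicate 2 alone the list ratio was 5.02, beside 6.80 for the members. Of the 19 genes listed, 15 were above 0 there, against 9 and 5 in circulating ex-Tcirc replicates 1 and 2. Top2a, which untangles replicated DNA, was at 7.40, 5.72, 3.34 and 6.41 FPKM in tissue against 46.5, 21.1 and 21.2 in circulation. Mki67, a marker of cycling cells, stood at 5.78, 7.27, 3.65 and 8.04 FPKM in tissue against 71.3, 0 and 45 in circulation. Bub1 and Birc5 were listed at 0 in all 7 libraries, and Cdk1 in the 3 circulating and both tissue ex-Tcirc libraries. The part of cycling cells in the member values was not tested.

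Other gene kinds that share a feature with the members were set beside them. The labels name total RNA as the molecule, and a step of poly(A) selection or ribosomal RNA removal is not given in the sources used here. Among 12 RNAs without a poly(A) tail outside the histone family, 0 had all circulating libraries above tissue and 4 had all below. The shares of all genes were 2.33% and 12.1%. The list ratio of 0.854 rests mostly on Rn7s1 and Rn7s2, with ratios of 0.872 and 0.885. Single genes differed, for instance Rny3 with 0.0796 and Terc with 2.54. Of 12 intronless coding genes, such as Jun and Junb, 0 were above and 2 below, with a ratio of 0.79. Of 901 olfactory and vomeronasal receptor genes that met the minimum, which T cells are not known to use, 3 were above and 63 below, with a ratio of 0.99 over 1757 names.

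**Figure D5:**
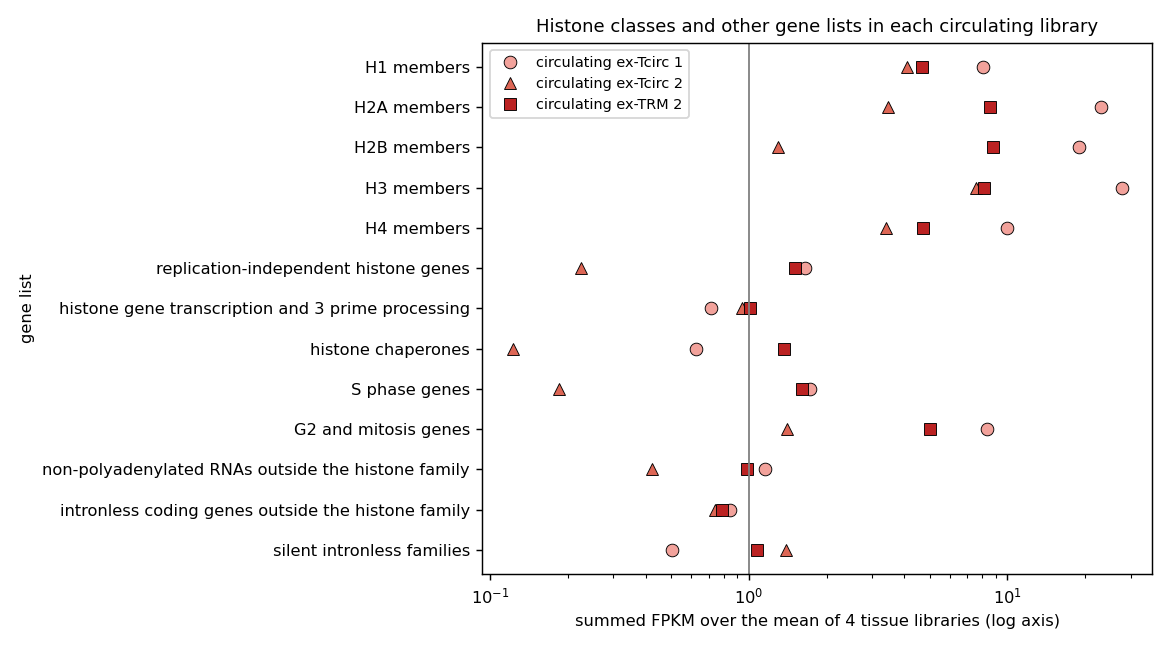
Summed FPKM of each histone class and of 8 other lists in each circulating library, divided by the mean of the 4 tissue libraries (log axis), with a line at 1. All histone points lie above 1, and of the other lists only G2 and mitosis genes lie above 1 in all 3 circulating libraries.

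Markers of other cell types also differed between libraries. The 6 myeloid markers summed to 38 to 135 FPKM in tissue against 669, 300 and 58.1 in circulation, mostly from Lyz2, with S100a8 and S100a9 at 0 in all 7 libraries and Adgre1 at 0 in the 3 circulating ones. The 5 epithelial markers summed to 4.1 to 77 FPKM in tissue against 495, 0 and 30.6 in circulation, led by Sftpc. Epcam, at 2.77 to 7.24 FPKM in tissue, and Sftpb were listed at 0 in all 3 circulating libraries. Their part in the ex-Tcirc values was not tested. In circulating ex-TRM replicate 2 both sums lay within the tissue range. The 6 T cell markers summed to 1103 to 1493 FPKM in tissue against 1196, 1156 and 1486 in circulation.

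A further 10 histone names that the rule leaves out, H2ac5-ps and older-style names starting with Hist1, followed the members. They summed to 134, 132, 99 and 149 FPKM in tissue against 2264, 307 and 932 in circulation, a ratio of 9.07. Of the 10 names, 8 counted as protein-coding, and Hist1h2al and H2ac5-ps were not among them. Hist1h2al, an H2A name, was at 78.3, 57.4, 48.1 and 63.2 FPKM in tissue against 897, 139 and 364 in circulation. It was higher than any H2A member in 6 of the 7 libraries. These names were added after the values had been seen.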

How the data were processed

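Per the file headers, the deposited values are FPKM per gene name, and per the submitters' processing notes the build is mm10. Among the tools in those notes, which give no roles, are the aligner HISAT2 2.2.1, the transcript quantifier StringTie 3.0.1, SAMtools 1.15 and the trimmer Trim Galore 0.6.7. Not given in the sources used here are the annotation, the strand setting and how the authors assigned fragments that match several near-identical histone copies. The labels' protocols name a strand-specific kit and paired reads.

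Values of 1 name were summed, which touched no member. No 2 libraries were identical. Depth was estimated, not read, from the step that 1 fragment adds to FPKM times length in short noncoding genes of 60 to 5000 bases. Circulating ex-Tcirc replicate 2 was placed by its ratio to replicate 1, and 1 library could not be placed. Fragments of members were estimated only for members of at most 1000 bases.

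Origins were compared with limma 3.58.1 (R 4.3.3, intensity trend) on log2(FPKM + 1), which understates the change of low genes. Genes needed 1 FPKM in at least 2 libraries fitted, with Benjamini-Hochberg adjustment over all genes and a threshold of 0.05. The script was tested on simulated data. Named in full are all H1 genes, the 4 members of each class highest on average, members called in a test and those with the largest and smallest ratio. H2bc6, H2bc8, H2bc12, H4c3, H2ac14, H2ac19, H2bc18 and H3c13 were named after their values were seen, as were the examples from other lists. The members and lists were chosen with earlier results of these data known. Alternatives were pseudocount, filter, scaling, block, library sets and names.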

Additional observations from a re-analysis of the deposited data

Results flagged for a closer look

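H2bc9, an H2B gene, was at 743 FPKM in circulating ex-TRM replicate 1, the nearly empty library that was treated as missing, and it was the only member above 0 there. It was picked out as a signal in data that the comparisons do not use. In the other libraries H2bc9 stood at 4.31, 1.97, 1.70 and 2.60 FPKM in tissue against 26.7, 0.206 and 17.8 in the circulating ones. The number of fragments behind the value of 743 FPKM is unknown, since the depth of that library could not be estimated.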

How the results depend on the processing

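The ratio of circulating to tissue sums stayed above 1 for all 5 classes and for all members under every alternative run. These values had been used to choose the members, so this is a description. Without circulating ex-Tcirc replicate 1 the ratio fell from 11.7 to 6.00 for H2A and from 9.64 to 5.05 for H2B. For all members it was 9.12, 10.3 with TPM, 8.39 with median-of-ratios factors, 10.3 when scaled to protein-coding FPKM, 7.22 with circulating ex-TRM replicate 1 included and 6.80 with circulating ex-TRM replicate 2 alone, an alternative chosen after seeing the data. It was 5.31 to 11.8 with 1 library left out. The count of 33 members without overlap was 32 to 35 under other scalings and names, 33 of 41 members above 0 in all libraries (beside 12.6% of all genes), 0 with circulating ex-TRM replicate 1 included, and 33 to 50 with 1 library left out.

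The count of all genes called between origins in tissue was 0 under other pseudocounts, filters and scalings and with 7 libraries, and 0 to 8519 with 1 library left out. In circulation 4400 genes were called, 7572 with a pseudocount of 0.1, 176 with a mean of at least 20 FPKM, 0 with the 3 circulating libraries alone, and 0 to 10181 with 1 library left out. Of the members, 1 (H2bc21) was called with a pseudocount of 0.1, beside 7572 of all 28325 genes. With TPM 1 (H3c14, adjusted p = 0.0289 by limma) was called, beside 3555 of all 23851 genes. No member call is given here without tissue ex-Tcirc replicate 2, which leaves that group with 1 library. The log2 difference of H2bc21 there was 1.47, as with all 7 libraries. No fit without circulating ex-TRM replicate 2 was possible for the comparison in circulation. Member calls are not given for fits that left out a circulating ex-Tcirc library, where 1 library stood against 1. With the replicate number as a block, 268 genes were called in tissue and 0 in circulation, and no member in either. Nothing in the labels says that the numbers pair the libraries, and the deviations of same-numbered tissue libraries correlated at -0.127 across genes. The cause of these changes was not tested. Both circulating ex-Tcirc libraries were shallow and held many zeros, also at genes such as Slbp, with 21.8 to 33.6 FPKM in tissue. The part of depth in these zeros was not tested.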
